A study of Mus musculus with 4 samples.

Results

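Chemokines are small secreted proteins that guide the movement of cells carrying matching receptors. The chemokine genes were taken as every gene whose symbol begins with Ccl or Cxcl followed by a number, or is Cx3cl1, and 36 of the 21862 genes listed once in the data met this rule. Of these, 14 had an FPKM (fragments per kilobase of transcript, scaled to the mapped reads of the library) above 2 in any library, namely Cx3cl1, Cxcl12, Ccl2, Cxcl1, Ccl7, Cxcl5, Ccl27a, Cxcl16, Cxcl10, Ccl25, Ccl17, Ccl5, Ccl11 and Cxcl15. The first 10 of these and Ccl5 made up the 11 genes that were above 2 in all 4 libraries. Of all 21862 genes, 11351 were above 2 in any library and 10489 in all 4, each a larger share than of the chemokine genes.

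RNA sequencing was performed on control mouse neural progenitor cells (NPCs) and on NPCs in which Srf was knocked down by a short hairpin (shSrf), each cultured on a soft matrix of 0.5 kPa and on a stiff matrix of 12 kPa. Srf is a transcription factor that responds to the state of the actin cytoskeleton, and the comparison asked how gene expression follows matrix stiffness with and without it. The 4 groups were control 0.5 kPa, control 12 kPa, shSrf 0.5 kPa and shSrf 12 kPa, with 1 library for each, so that no difference below has a replicate check or a p-value. All cells were of the N31 line, an NPC line obtained in vitro from induced pluripotent stem cells, which had themselves been made from embryonic stem cell-derived NPCs, and carried doxycycline-inducible Oct4, Klf4, c-Myc and Sox2 (OKMS) and a constitutive rtTA on piggyBac transposons, and all were kept without EGF and bFGF on collagen-coated dishes. According to the study's methods, shSrf was delivered by a retrovirus with an H1 promoter, and the methods do not state which vector the control cells received.

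Chemokines are grouped into CC, CXC and CX3C families by the spacing of conserved cysteines near the start of the mature protein. Most act in inflammation, when NF-kB or interferon signalling induces them and they draw in neutrophils, monocytes or lymphocytes. A few are produced in the resting state, and in the nervous system CX3CL1 of neurons acts on microglia while CXCL12 guides migrating progenitors.

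The targeted gene Srf had an FPKM of 34.4 and 35.6 in the control libraries at 0.5 and 12 kPa and of 16.2 and 17.4 in the shSrf libraries. The depth, estimated from the steps in low FPKM values, was 24.1 to 62.3 M reads and was higher in both shSrf libraries than in both control libraries. A gene of 1000 nucleotides would reach 3 reads at an FPKM of 0.0481 to 0.124. Of 10 neural progenitor markers, 5 were above 2 in all libraries, as were 10489 of all 21862 genes. Sox1, Hes5 and Olig2 were listed at 0 in every library. Of 10 mesenchymal markers, 8 were above 2 in all libraries, with Col3a1 highest at 1584 to 1908. Of 11 immune cell markers, 2 (Tmem119 and Cd68) were above 2, while Ptprc, which marks all leukocytes, was at 0 to 0.0188 and Csf1r of macrophages and microglia at 0.0544 to 0.157.

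Chemokine expression rested on a small number of genes. Cx3cl1, Cxcl12, Ccl2 and Cxcl1 together made up 81.1% and 84.2% of the summed FPKM of the 36 genes in the control libraries at 0.5 and 12 kPa, and 81.0% in each shSrf library. The sum itself was 369 and 398 in the control libraries and 412 and 430.3 in the shSrf libraries. Within this sum the order of the genes differed between the populations. Cx3cl1 gave 37.8% and 38.5% of the sum in the control libraries and 18.3% and 19.1% in the shSrf libraries. Cxcl12 gave 19.7% and 24.7% in the control libraries and 26.2% and 32.2% in the shSrf libraries. Ccl2 gave 16.3% and 13.8% in the control libraries and 28.7% and 21.6% in the shSrf libraries. Cx3cl1 was thus the highest chemokine gene in both control libraries, Ccl2 in shSrf cells at 0.5 kPa and Cxcl12 in shSrf cells at 12 kPa.

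**Figure D1:**
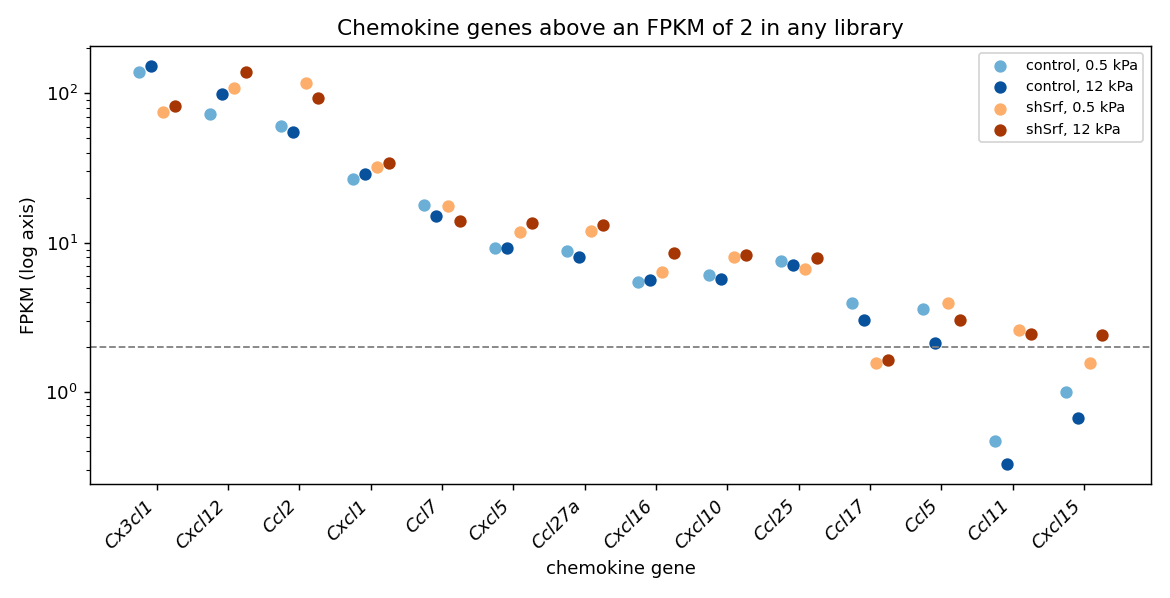
FPKM on a log axis of the 14 chemokine genes above 2 in any library, with 1 point for each of the 4 libraries and a dashed line at 2. Cx3cl1, Cxcl12 and Ccl2 lie highest, and Ccl17, Ccl11 and Cxcl15 cross the line between libraries.

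**Figure D2:**
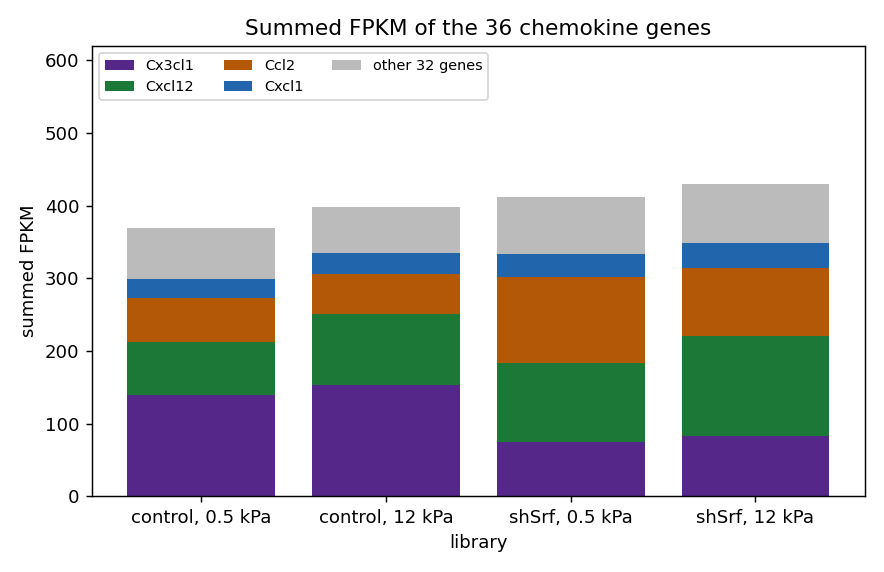
Summed FPKM of the 36 chemokine genes in each library, stacked by gene. The share of Cx3cl1 is smaller in the shSrf libraries, and the shares of Ccl2 and Cxcl12 are larger.

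The promoters of 8 of the 14 expressed genes, and of 26 of all 36, were found in the RefSeq table of GRCm38.p6 and were searched over 250 bases before the transcription start on both strands. The expressed genes without an entry were Ccl11, Ccl2, Ccl5, Ccl7, Cxcl16 and Cxcl5. The motifs were an NF-kB motif in a loose form (GGG and CC with any 5 bases between) and in a strict form (GGGA and TTTCC with any base between), whose matches all count in the loose form too, an interferon motif (GAAA and GAAA with any 2 bases between), an AP-1 motif (TGA and TCA with any base between), a TATA motif (TATAAA) and the CArG box that Srf binds. The motifs and the 4 promoters shown were chosen with the expression values known. They are those of Cx3cl1 and Cxcl12, the highest genes in control cells and with knockdown ratios of opposite sign, of Cxcl1, the highest neutrophil-attracting gene, and of Cxcl10, the interferon-induced gene. They lie at chr8:94771930-94772179 (plus strand), chr6:117168285-117168534 (plus), chr5:90890995-90891244 (plus) and chr5:92348890-92349139 (minus). Each is written 5′ to 3′ up to the base before the start, with motif matches in capitals.
Cx3cl1: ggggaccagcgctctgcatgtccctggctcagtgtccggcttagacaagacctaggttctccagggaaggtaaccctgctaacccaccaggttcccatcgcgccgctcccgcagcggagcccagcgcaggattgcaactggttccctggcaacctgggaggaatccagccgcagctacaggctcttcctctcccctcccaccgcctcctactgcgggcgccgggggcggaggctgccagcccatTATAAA
Cxcl12: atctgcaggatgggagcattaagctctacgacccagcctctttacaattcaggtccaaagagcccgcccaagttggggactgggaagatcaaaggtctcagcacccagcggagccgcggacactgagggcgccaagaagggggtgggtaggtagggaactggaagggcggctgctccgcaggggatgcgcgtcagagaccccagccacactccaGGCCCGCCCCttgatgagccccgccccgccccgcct
Cxcl1: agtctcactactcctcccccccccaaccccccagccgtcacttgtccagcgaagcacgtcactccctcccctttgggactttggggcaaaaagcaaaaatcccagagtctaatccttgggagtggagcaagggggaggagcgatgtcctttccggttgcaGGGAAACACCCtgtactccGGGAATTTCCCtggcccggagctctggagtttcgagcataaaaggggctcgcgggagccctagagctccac
Cxcl10: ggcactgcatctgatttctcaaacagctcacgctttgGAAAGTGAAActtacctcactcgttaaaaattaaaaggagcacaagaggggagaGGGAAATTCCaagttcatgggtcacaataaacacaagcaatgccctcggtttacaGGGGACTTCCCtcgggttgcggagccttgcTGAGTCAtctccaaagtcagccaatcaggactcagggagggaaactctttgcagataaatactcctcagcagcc

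The promoters of Cx3cl1 and Cxcl12 were similar in base composition, at 64.8% and 64.4% G and C, and each held 14 CG dinucleotides. That of Cx3cl1 held a TATA motif directly before the annotated start, at -6 to -1 counted from it, and no NF-kB match in either form. That of Cxcl12 held 1 loose NF-kB match on the opposite strand at -36 to -27. That of Cxcl1 held a strict NF-kB match at -71 to -62. The strict form stood in 0.356% of 32851 mouse promoters, and among the 26 chemokine promoters in 3, those of the neighbouring genes Cxcl1, Cxcl2 and Cxcl3. That of Cxcl10 held an interferon motif at -213 to -204 (2.98% of all promoters), loose NF-kB matches between -159 and -94 (45.8%) and an AP-1 motif at -74 to -68 (6.75%). The TATA motif stood in 12.4% of all promoters and in 10 of the 26 chemokine promoters. Of these 26, 15 held the loose NF-kB form, 4 the AP-1 motif and 3 the interferon motif. The CArG box stood in 1.47% of all promoters and in 0 of the 26, which lies near that share. These matches describe the letters in this window and say nothing about binding.

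Ratios between populations were taken for genes above an FPKM of 2 in all 4 libraries, 10489 genes in all and 11 chemokine genes. Knockdown ratios were called at 2-fold. At 0.5 kPa 0 of 11 were higher and 0 lower, against 2.45% and 2.86% of all included genes. At 12 kPa again 0 of 11 were higher and 0 lower, against 2.74% and 2.22%, and 1.74% and 1.71% of all genes were past 2-fold at both stiffnesses. At 1.5-fold at both stiffnesses, a limit looked at after the values were known, Ccl2 was higher and Cx3cl1 lower, against 6.63% and 6.17% of all genes. With no threshold, 8 of 11 were higher in shSrf cells at both stiffnesses (43.2% of all genes), Ccl7 and Cx3cl1 were lower at both (41.3%), and Ccl25 differed in direction. With GC centring the small ratios of Ccl7 turned positive at both stiffnesses, to 0.07 and 0.03. The median log2 ratio of the 11 was 0.26 at 0.5 kPa and 0.52 at 12 kPa, beside medians of 0.011 and 0.0098 over all included genes. In bulk RNA, fewer cells that express a gene and less RNA per cell cannot be told apart. When ratios were centred within bins of transcript GC content, Cx3cl1 passed 2-fold downward at both stiffnesses and Ccl2 passed it upward at 0.5 kPa.

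**Figure D3:**
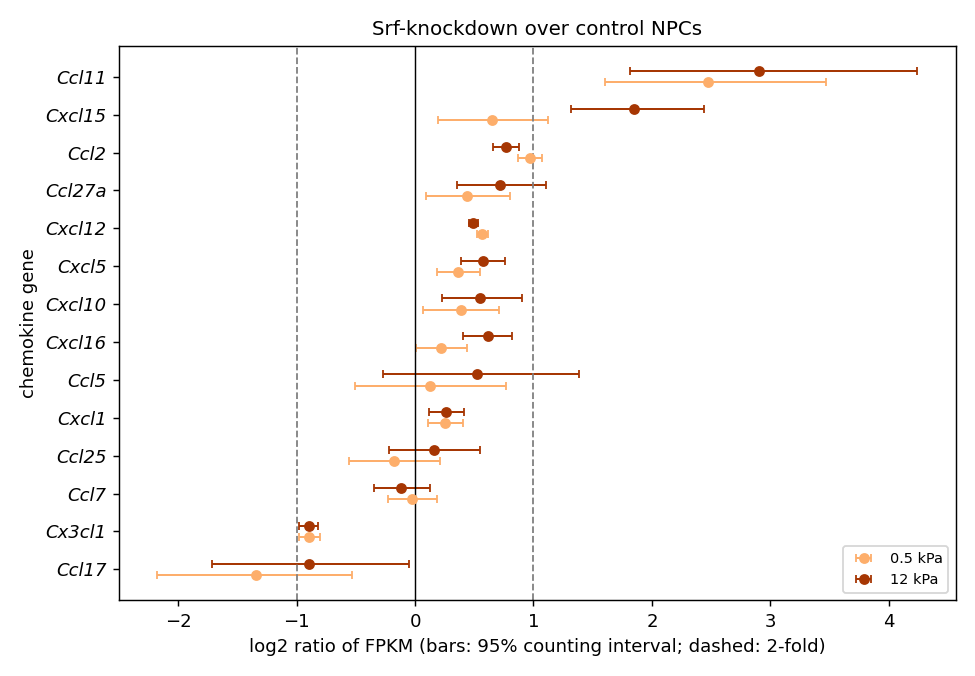
Log2 ratio of shSrf to control FPKM at 0.5 kPa (light) and 12 kPa (dark) for the 14 chemokine genes above 2 in any library, with bars for the 95% interval of counting error alone and dashed lines at 2-fold. 8 of the 14 genes lie between equal and 2-fold higher at both stiffnesses, with Cx3cl1 and Ccl17 on the lower side and Ccl11 highest.

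**Figure D4:**
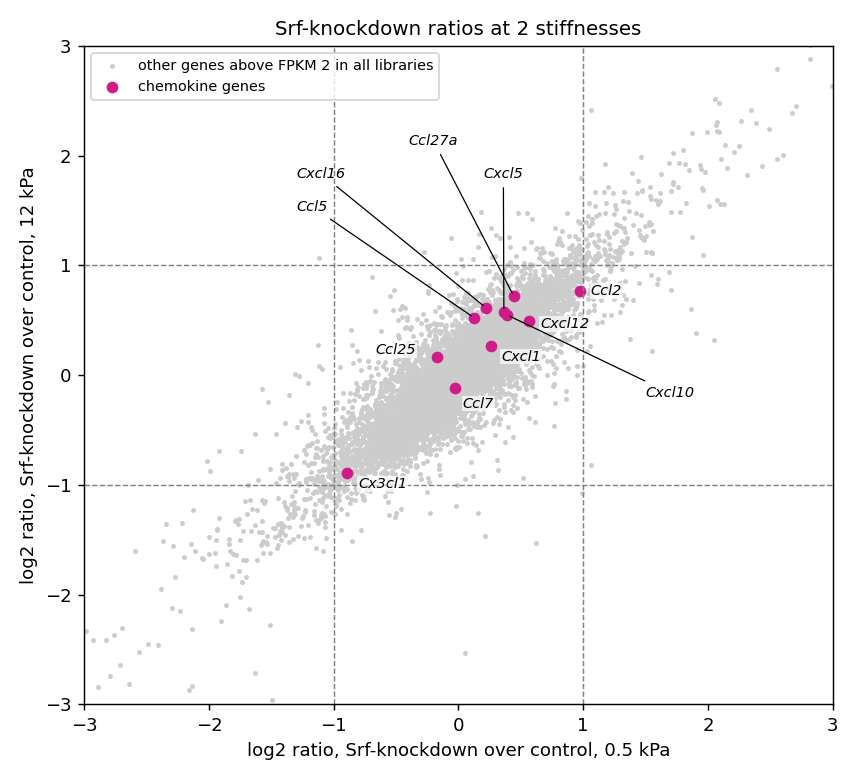
Log2 ratios of shSrf to control FPKM at 0.5 kPa (horizontal) and 12 kPa (vertical) for genes above an FPKM of 2 in all libraries, with the 11 chemokine genes in colour and dashed lines at 2-fold; 9 genes lie beyond the axes. The chemokine genes lie inside the dashed lines at both stiffnesses, with Ccl2 and Cx3cl1 nearest to them.

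Cx3cl1 encodes fractalkine, the only CX3C chemokine, which is made as a membrane-bound protein and released by proteases. Its FPKM was 139.6 in control cells at 0.5 kPa, 153 in control cells at 12 kPa, 75.2 in shSrf cells at 0.5 kPa and 82.3 in shSrf cells at 12 kPa. Both shSrf libraries thus lay below both control libraries, by a log2 ratio of -0.89 at 0.5 kPa (95% counting interval -0.98 to -0.81) and of -0.90 at 12 kPa (-0.98 to -0.82). These intervals cover counting error only and rest on estimated reads. On the stiffer matrix Cx3cl1 was slightly higher in each population, with a log2 ratio of 0.13 in both, just inside the 1.1-fold limit.

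Cxcl12 encodes SDF-1, which attracts progenitor cells and lymphocytes through CXCR4 and is bound by the scavenger receptor ACKR3. Its FPKM was 72.8 and 98.4 in control cells at 0.5 and 12 kPa and 108 and 139 in shSrf cells. It was therefore higher in both shSrf libraries, with log2 ratios of 0.57 (0.53 to 0.61) at 0.5 kPa and 0.49 (0.46 to 0.53) at 12 kPa, and also higher on the stiff matrix in each population. The ratio of Cx3cl1 to Cxcl12 was 1.92 and 1.55 in the control libraries and 0.696 and 0.594 in the shSrf libraries, so that their order was opposite in the 2 populations. Cxcl16, a membrane-bound chemokine for CXCR6, had an FPKM of 5.49 and 5.59 in control cells and 6.39 and 8.56 in shSrf cells, with log2 knockdown ratios of 0.22 and 0.61. The overlap of Cxcl16 with Zmynd15 leaves its value uncertain, although Zmynd15 stood at 1.46 to 2.62 only.

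Among the CC chemokines for monocytes and eosinophils, 3 of the 7 listed genes were expressed. Ccl2 encodes MCP-1, which attracts monocytes through CCR2. Its FPKM was 60.2 and 54.8 in control cells and 118 and 93.2 in shSrf cells. Ccl2 was higher in both shSrf libraries, with log2 ratios of 0.97 (0.87 to 1.07) at 0.5 kPa and 0.76 (0.65 to 0.88) at 12 kPa, that is 1.96-fold and 1.70-fold. Its neighbour Ccl7, which encodes MCP-3 and shares CCR2 as a receptor, had an FPKM of 18.0 and 15.1 in control cells and 17.6 and 13.9 in shSrf cells. The knockdown ratios of Ccl7 were near 0, at -0.03 (-0.23 to 0.19) and -0.11 (-0.34 to 0.12). The ratio of Ccl2 to Ccl7 accordingly was 3.35 and 3.64 in the control libraries and 6.70 in each shSrf library.

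Ccl11 encodes eotaxin, which attracts eosinophils, and lies next to Ccl7 on chromosome 11. It stood at 0.468 and 0.329 in control cells and at 2.59 and 2.46 in shSrf cells, so that it was above 2 in the shSrf libraries only. These values correspond to about 12 and 7 reads in control cells and 103 and 135 in shSrf cells, and to log2 ratios of 2.47 (1.61 to 3.47) and 2.90 (1.82 to 4.24). With a pseudocount of 1 the log2 ratios of Ccl11 were 1.29 and 1.38. Further along the same cluster, the monocyte attractant Ccl12 had an FPKM of at most 0.0793, Ccl8 of at most 0.143 and the T cell product Ccl1 of at most 0.284. The cluster from Ccl2 to Ccl1 (chr11:82035577-82179812, GRCm38) thus held 3 expressed genes of 6, and Ccl7, with ratios near 0, lies between Ccl2 and Ccl11. Ccl11 counts as expressed through its shSrf values alone, so a high ratio follows in part from the limit of 2.

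The 5 listed CXC chemokines that act on neutrophils lie in 1 cluster on chromosome 5, and 3 of them were expressed. Cxcl1, or KC, had an FPKM of 26.9 and 28.6 in control cells and 32.2 and 34.4 in shSrf cells. Its ratios between shSrf and control cells were small and alike, at 0.26 (0.11 to 0.40) and 0.26 (0.12 to 0.41). Cxcl5, or LIX, had 9.16 in each control library and 11.8 and 13.6 in the shSrf libraries, which gave log2 ratios of 0.36 and 0.57. Cxcl15, or lungkine, was above 2 in shSrf cells at 12 kPa only, at 2.41, with 0.998 and 0.667 in the control libraries and 1.57 in shSrf cells at 0.5 kPa, and log2 knockdown ratios of 0.65 and 1.85. The high ratio at 12 kPa thus follows in part from the limit of 2. Cxcl3 stood at 0.463 and 0.661 in control cells and 1.28 and 1.26 in shSrf cells, whereas Cxcl2 stood at 0.524 and 0.456 in control cells and 0.147 and 0.323 in shSrf cells. The neighbours Cxcl1 and Cxcl2, both with the strict NF-kB match, therefore differed 51.4-fold to 219-fold in FPKM over the 4 libraries.

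Of the chemokines for CXCR3, which T cells carry, Cxcl10 and Cxcl9 were listed. Cxcl10, or IP-10, had an FPKM of 6.11 and 5.68 in control cells and 7.99 and 8.32 in shSrf cells, with log2 ratios of 0.39 (0.06 to 0.71) and 0.55 (0.23 to 0.90). Both shSrf values of Cxcl10 lay above both control values. Cxcl9, its neighbour, was at most 0.0418. Cxcl10 lies within Art3, which itself stood at 0.0899 to 0.425.

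Ccl5, or RANTES, a T cell attractant, was the only expressed gene of its cluster of 5. It had an FPKM of 3.60 and 2.13 in control cells and 3.93 and 3.05 in shSrf cells, and the intervals of its knockdown ratios, 0.13 and 0.52, contained 0. Its neighbours Ccl3 and Ccl4 were listed at 0 in all libraries, Ccl6 was at most 0.0921, and Ccl9 stood at 1.02 and 1.05 in control cells and 0.208 and 0.806 in shSrf cells.

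Among the other CC chemokines, 3 of 11 listed genes were expressed. Ccl17, or TARC, which attracts T cells through CCR4, lies next to Cx3cl1 on chromosome 8 and was lower in shSrf cells. It had an FPKM of 3.95 and 3.05 in control cells, above 2, and of 1.56 and 1.64 in shSrf cells, below it. The log2 ratios were -1.34 (-2.18 to -0.54) and -0.89 (-1.71 to -0.05) on about 22 to 36 reads a library. Ccl17 counts as expressed through its control values alone, so a low ratio follows in part from the limit of 2. Ccl22, on the other side of Cx3cl1 (chr8:94745684-94751388), was listed at 0 in both control libraries and at 0.107 and 0.00796 in the shSrf libraries.

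Ccl27a, a skin chemokine, had an FPKM of 8.78 and 7.97 in control cells and 11.9 and 13.1 in shSrf cells. Both shSrf values were higher, with log2 ratios of 0.44 and 0.72. It has a near-identical copy, Ccl27b, which was listed at 0 in all libraries, so its value is uncertain. In the RefSeq positions Ccl27a meets Il11ra1, which stood at 25.0 to 29.7, only at its end (chr4:41769467-41769473). Ccl25, or TECK, a thymus and gut chemokine, had 7.55 and 7.11 in control cells and 6.69 and 7.95 in shSrf cells, and its 4 values did not separate by population.

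For the change with stiffness, the ratio of 12 to 0.5 kPa was called at 1.1-fold. In control cells 1 of the 11 genes was higher (Cxcl12) and 3 were lower (Ccl27a, Ccl5 and Ccl7), against 17.9% and 16.9% of all included genes. In shSrf cells 5 were higher (Ccl25, Ccl27a, Cxcl12, Cxcl16 and Cxcl5) and 3 lower (Ccl2, Ccl5 and Ccl7), against 17.6% and 13.0%. The calls of Ccl27a stood at the limit, and its shSrf call was lost with a pseudocount of 1, median centring, GC centring and scaling to the 75th percentile. In both populations Cxcl12 was higher, against 5.10% of all genes, and Ccl5 and Ccl7 were lower, against 3.24%. The median log2 ratio of the 11 was -0.09 in control cells and 0.13 in shSrf cells, beside 0.0030 and 0.0064 over all included genes. With no threshold 4 genes were higher on 12 kPa in both populations (27.6% of all genes), 3 were lower in both (24.6%) and 4 differed in direction.

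Cxcl12 was the clearest of these genes, with a log2 ratio of 0.43 in control cells (0.39 to 0.48) and 0.36 in shSrf cells (0.33 to 0.39). Both intervals lay above the 1.1-fold limit. The neighbours Ccl2 and Ccl7 were lower on the stiff matrix, with log2 ratios in control and shSrf cells of -0.13 (just inside the limit) and -0.34 for Ccl2, and of -0.26 and -0.34 for Ccl7. The ratios of Ccl5 were -0.76 (-1.70 to 0.10) and -0.36 (-0.91 to 0.16), and both intervals contained 0. Cxcl16 had a ratio of 0.03 (-0.22 to 0.28) in control cells and of 0.42 (0.26 to 0.58) in shSrf cells, and the difference between them was not tested. Counting intervals excluded 0 for 4 of the 11 genes in control cells (Ccl2, Ccl7, Cx3cl1 and Cxcl12) and for 6 in shSrf cells (the same 4, Cxcl16 and Cxcl5), against 41.0% and 51.0% of the included genes with a transcript length. In the knockdown comparison they excluded 0 for 8 genes at each stiffness, against 78.0% at 0.5 kPa and 78.5% at 12 kPa. Differences between cultures come on top of this error and were not measured.

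**Figure D5:**
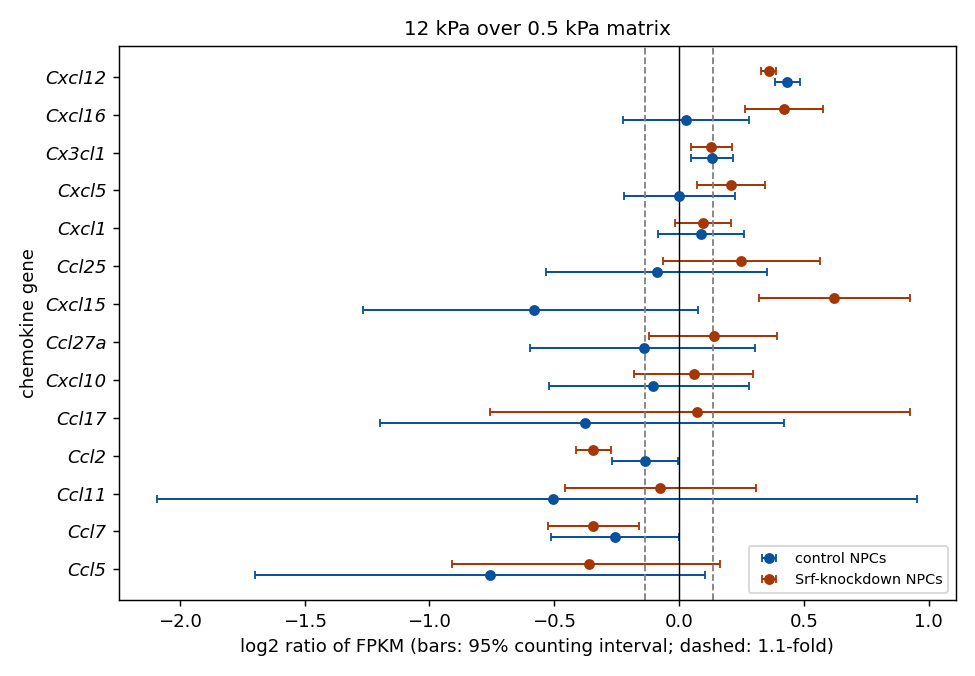
Log2 ratio of FPKM at 12 kPa to 0.5 kPa in control and shSrf cells for the 14 chemokine genes above 2 in any library, with bars for the 95% interval of counting error alone and dashed lines at 1.1-fold. Cxcl12 lies to the right of the dashed line in both populations, and the intervals of Ccl11, Ccl17 and Ccl5 are wide.

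The remaining 22 chemokine genes did not reach an FPKM above 2. The nearest to it were Cxcl13, which draws B cells, at 0.832 and 1.66 in control cells and 1.61 and 1.64 in shSrf cells, Ccl20, the ligand of CCR6, at 0.978 to 1.58, and Cxcl14, which was at 1.40 and 1.12 in control cells and at 0.766 and 1.24 in shSrf cells. In all 14 were detected without passing 2, of which 5 reached 1 in a library and 8 stayed under 0.5. The other 8, listed at 0 in all libraries, were Ccl3, Ccl4, Ccl19, Ccl21a, Ccl21b, Ccl24, Ccl26 and Ccl27b. The study used only reads of high mapping quality. A 0 in a gene with a near-identical copy, such as Ccl27b, therefore need not mean no expression. The same may hold for Ccl21a and Ccl21b, whose transcripts are both 870 nucleotides long. Of 3 chemokine genes named outside the rule, Xcl1, Pf4 and Ppbp, the highest value was 1.33 (Pf4). Ppbp stood at 1.09 and 0.752 in control cells and at 0.226 and 0.164 in shSrf cells.

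Few of the receptors for these chemokines were expressed. Of 23 receptor genes 1 was above 2 in all libraries, the scavenger receptor Ackr3, at 14.8 and 16.2 in control cells and 10.5 and 13.4 in shSrf cells. Over all genes, 10489 of 21862 were above 2 in all libraries. Cxcr4, the signalling receptor of CXCL12, was at 2.35 and 1.77 in control cells and at 4.23 and 5.40 in shSrf cells. Cxcl12 was thus 25.6-fold to 55.6-fold above Cxcr4. Ccr2, for CCL2 and CCL7, was listed at 0 throughout, Cx3cr1 was at most 0.00543, Cxcr2 at most 0.131, Cxcr3 at most 0.0629 and Cxcr6 at most 0.353.

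Genes for proteins that release or hold chemokines at the cell surface were expressed, 7 of 8 above 2 in all libraries, with median knockdown ratios of -0.59 and -0.76. Past 2-fold at both stiffnesses 1 was lower and 0 higher, and past 1.5-fold 4 were lower, against 1.71%, 1.74% and 6.17% of all included genes for these 3 limits. Adam10, a protease that cleaves CX3CL1 and CXCL16, had an FPKM of 87.6 and 97.3 in control cells and 58.0 and 57.3 in shSrf cells. The heparan sulfate proteoglycan Sdc2 was at 151 and 138 in control cells and 31.3 and 38.7 in shSrf cells. The proteoglycan Sdc4 was at 127 in each control library and at 64.8 and 61.7 in shSrf cells, and Gpc1 was lower too. Sdc1 and Sdc3 were not lower, with log2 ratios of 0.02 and 0.37, and of 0.004 and 0.12. Adam17 differed in direction, with -0.31 at 0.5 kPa and 0.23 at 12 kPa.

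None of 8 cytokines that induce chemokines was above 2, the highest being Il6 at 1.28 in control cells at 12 kPa, and Il1b, Il17a and Ifng were listed at 0. Their receptors and Toll-like receptors were all above 2 (16 of 16), and 0 were past 2-fold at both stiffnesses in either direction. Over all included genes 1.74% were higher and 1.71% lower, so 0 of so few genes lies near these shares. Past 1.5-fold at both, 1 receptor was higher and 2 lower, against 6.63% and 6.17%. The TNF receptor Tnfrsf1a stood at 162 and 144 in control cells and at 73.3 and 85.6 in shSrf cells. Of the NF-kB pathway 17 of 20 genes were included, again with 0 past 2-fold at both, near the same shares, and with median ratios of -0.03 and 0.03. Past 1.5-fold at both, 1 was higher and 0 lower. Its inhibitor and target Nfkbia stood at 67.7 and 63.7 in control cells and at 124 and 133 in shSrf cells. Tnfaip3, another inhibitor and target, differed the other way, from 10.1 and 7.93 in control cells to 6.64 and 5.96 in shSrf cells.

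Of the interferon-stimulated genes, 26 of 29 listed were included, of which 5 were higher past 2-fold at both stiffnesses and 0 lower, against 1.74% and 1.71% of all included genes. The median ratios were 0.35 and 0.32. Isg15, a ubiquitin-like protein, stood at 35.3 and 39.4 in control cells and at 97.1 and 108 in shSrf cells. Ifit3, an antiviral gene, stood at 3.20 and 3.89 in control cells and at 13.8 and 15.3 in shSrf cells, beside the smaller difference of Cxcl10. Other genes of the list were lower at both stiffnesses, among them Gbp2 (log2 ratios -0.44 and -0.37), Dtx3l (-0.29 and -0.29) and Ddx58 (-0.10 and -0.16). Both ratios of Cxcl10 and those of these genes share the same libraries.

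The summed FPKM of the 11 immune markers was 24.4 and 25.3 in control cells and 49.6 and 52.9 in shSrf cells, and Tmem119 alone gave 17.7 and 19.1, and 41.0 and 45.7. The sum of 8 endothelial markers, none above 2 in all libraries, was 1.75 and 1.59 in control cells and 6.13 and 6.18 in shSrf cells, of which Emcn reached 5.29. Cd3e and Tie1 were listed at 0 in all libraries. The immune and endothelial sums were higher in both shSrf libraries, whereas the chemokine genes differed in both directions. Among the mesenchymal markers Postn was lower in shSrf cells, with log2 ratios of -2.64 and -2.82, and Dcn higher, with 1.54 and 1.60, while the sum of the list was 3045 to 3260 in control cells and 3028 to 3114 in shSrf cells. Among the neural progenitor markers Sox2 was higher, with 2.15 and 1.89, as were Pax6 and Vim. Nes was lower, with -1.65 and -1.22, and so was Slc1a3, with -1.47 and -1.48. The cells carry a Sox2 transgene, and the FPKM of Sox2 does not separate its reads from those of the endogenous gene. The sum of the list was 1784 and 1564 in control cells and 2436 and 2456 in shSrf cells. Vim alone gave 1696 and 1481, and 2380 and 2396, so the sum says little about the other genes. The part of these marker differences in the chemokine ratios was not tested.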

How the data were processed

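Stranded, poly(A)-selected libraries were made from total RNA of 4 NPC cultures and sequenced single-end. The authors trimmed reads with cutadapt 1.9.1, mapped them with TopHat2 2.1.0 and Bowtie2 2.2.8 to mm10 with GENCODE annotation, and calculated FPKM with Cufflinks 2.2.1. According to the study's methods, only reads of high mapping quality were used. The strand setting of the counting is not given in the sources used here. The deposited FPKM values, 21997 rows a library, were used as they stand, without 63 symbols listed more than once. The versions are from the submitters' processing notes.

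Log2 ratios were taken without a pseudocount over genes above an FPKM of 2 in all 4 libraries, which is the inclusion rule of the study, as is the 1.1-fold limit for stiffness. The 2-fold limit for knockdown was set here. Depth was estimated from the steps of FPKM under 0.1 in genes with 1 transcript in GENCODE M1, taking 200 nucleotides off each length. Reads were estimated from depth and the median transcript length, which is approximate for genes with several transcripts. Of 11 chemokine genes with 1 transcript and under 300 reads, 4 had all 4 values within 0.1 of a whole read, so the counting intervals are approximate. Intervals are exact 95% Clopper-Pearson intervals of the log2 ratio, conditional on the summed reads, and cover counting error only. The computation was tested on simulated data.

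The genes with values in each library were those above 2 in any library, the 3 nearest below, cluster neighbours, and at most 4 genes of each pathway list with the largest knockdown ratios. Clusters joined genes less than 1000000 bases apart. The chemokine genes and the lists were chosen with earlier results of these data known. Promoter sequences and gene positions are from RefSeq on GRCm38.p6. Computations used scipy 1.17.1, numpy 2.4.6 and pandas 2.3.3 under Python 3.11.15, and plots matplotlib 3.10.9. Alternatives were other FPKM minimums, a pseudocount of 1, centring on the median or within 50 bins of GC content, scaling to the 75th percentile and a 1.5-fold limit.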

Additional observations from a re-analysis of the deposited data

Results flagged for a closer look

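Both genes below were picked out because the 12 to 0.5 kPa ratio was past 1.1-fold in opposite directions in control and shSrf cells. With 1 library per condition the difference was not tested. Ccl27a was lower on the stiff matrix in control cells (log2 ratio -0.14, counting interval -0.60 to 0.30) and higher in shSrf cells (0.14, -0.12 to 0.39), a difference of 0.28, and both intervals contained 0. Both ratios stood at the limit: the shSrf one fell short of it with a pseudocount of 1 (0.13), median centring (0.13), GC centring (0.08) and 75th percentile scaling (0.13), and the control one with the pseudocount (-0.12) and GC centring (-0.12). Cxcl15 was lower in control cells (-0.58, -1.26 to 0.08) and higher in shSrf cells (0.62, 0.32 to 0.92), a difference of 1.20. The estimated reads of Cxcl15 were 56 and 31 in control cells at 0.5 and 12 kPa, and 136 and 289 in shSrf cells, and its FPKM was above 2 in the last of these only. Its higher ratio in shSrf cells thus follows in part from the limit of 2.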

How the results depend on the processing

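Of 224 ratios of single genes under the alternatives 2 changed sign, neither past 2-fold. They were those of Ccl7 at 0.5 and 12 kPa with GC centring (from -0.03 to 0.07 and from -0.11 to 0.03). Of the 96 counts and medians 17 moved, all of them counts, and a count cannot change sign. The medians kept their sign under every alternative for which they were taken. Of the single-gene ratios 9 moved past their counting interval, with a pseudocount of 1 for Ccl11 and Cxcl15 and with GC centring for Ccl2, Cx3cl1, Cxcl1 and Cxcl5. At a minimum of 1, 19 genes were expressed in any library and 12 in all, and at 5, 10 and 10. For knockdown at 0.5 kPa, 0 genes were past 2-fold, but with genes above 2 in any library 1 was higher (Ccl11) and 1 lower (Ccl17), with a minimum of 1 in all libraries 1 was lower (Ccl17), with GC centring 1 was higher (Ccl2) and 1 lower (Cx3cl1), and at 1.5-fold 1 and 1 (Ccl2, Cx3cl1). At 12 kPa, with genes above 2 in any library 2 were higher (Ccl11, Cxcl15), with GC centring 1 was lower (Cx3cl1), and at 1.5-fold 3 were higher (Ccl2, Ccl27a, Cxcl16) and 1 lower (Cx3cl1). For stiffness in control cells, with genes above 2 in any library 6 were lower, with GC centring 2 were higher (Cx3cl1, Cxcl12), and at 1.5-fold 0 were higher and 1 lower (Ccl5), while in shSrf cells at 1.5-fold the counts were 0 and 0, and 4 rather than 5 were higher, without Ccl27a, with a pseudocount, either centring or scaling. More genes enter under a lower minimum. Ccl11, Ccl17 and Cxcl15 pass the limit of 2 only through the libraries where they were higher, whereas Ccl17 passes a minimum of 1 in all 4 libraries. The cause of the change with GC centring was not tested. Apart from the 1.5-fold limit at both stiffnesses, shares over all genes were not taken under the alternatives. The counts above therefore describe the chemokine genes alone. No paired analysis was possible because there is just 1 library for every condition. Depth limits Ccl11, Ccl17 and Ccl5 most, since each had fewer than 40 estimated reads in both control libraries, and differences between cultures could not be measured at all.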
